A study of Homo sapiens with 4 samples.

Results

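The genes described here are TMEM88, the target of the knockdown, and 6 genes that lie near it on the short arm of chromosome 17: DNAH2, CYB5D1, KDM6B, EFNB3, WRAP53 and CHD3. They were taken by annotated symbol and make up 7 of the 20046 named genes and 8 of the 47322 probes on the array, with 2 probes for CHD3 and 1 for each of the others. The gene set was drawn up with the response of each hairpin against the controls already known. The members' levels and differences are therefore a description and carry no test.

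RNA came from RUES2, an established human embryonic stem cell line, on day 5 of directed cardiac differentiation, when cardiovascular progenitors appear. Before differentiation all cells had received a lentivirus coding for a short hairpin RNA (shRNA) and had been selected with puromycin, the controls included. The 2 control arrays, here controls 1 and 2, carried a control shRNA. Of the 2 TMEM88 shRNA arrays, 1 carried hairpin 691 and 1 hairpin 94, directed at different stretches of the TMEM88 locus. Each hairpin is thus represented by 1 sample, and the labels do not say whether the transduced cells were pools or clones, or whether the samples were separate cultures. The p-values therefore rest on the spread between these arrays, which may be technical, and on a variance shared by all tested genes. Between the TMEM88 shRNA arrays that spread also holds the difference between the hairpins.

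TMEM88 encodes a membrane protein whose C-terminal tail binds Dishevelled, the adaptor that relays Wnt signals from the Frizzled receptors, and it is known as a brake on canonical Wnt signalling in heart precursors. The genes around it have unrelated roles. DNAH2 encodes a heavy chain of the axonemal dynein motors that bend cilia and flagella, and CYB5D1 a protein with a cytochrome b5-like domain. KDM6B is a histone demethylase that removes a Polycomb mark, and CHD3 is a helicase of the NuRD chromatin remodelling complex. EFNB3 is a transmembrane ephrin ligand, and WRAP53 is a partner of telomerase in Cajal bodies.

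Signals are scanner intensities on a linear scale, and a probe counts as detected on an array where its detection p was under 0.01. Between 15300 and 16516 of the 47322 probes were detected per array, and the array medians lay between 130.9 and 135.7. Levels and differences below are log2 values after background correction and quantile normalization, which set the arrays on 1 scale. Among the markers of cardiac progenitors ISL1, HAND1, NKX2-5, PDGFRA and BMP4 were detected on all 4 arrays, and TBX5 and TBX20 on none. GATA4, GATA6 and HAND2 were detected on both controls and 1 TMEM88 shRNA array, and MEF2C on the controls alone. KDR was detected on 1 control and both TMEM88 shRNA arrays.

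The first question was how far each hairpin lowered its own target. The TMEM88 probe read 2292.8 in control 1 and 2987 in control 2, whereas shRNA 691 gave 360.7 and shRNA 94 gave 1329.7. Both TMEM88 shRNA arrays lay below both controls, and shRNA 691 lay far below shRNA 94. Taking the geometric mean of the controls as the reference, normalized TMEM88 was 9.62% for shRNA 691 and 52.9% for shRNA 94, while the single controls were 85.4% and 117%. The log2 differences from the control mean were -3.38 with shRNA 691 and -0.92 with shRNA 94, against a gap of 0.45 between the controls. Of 10377 tested genes, 21 had a difference this low or lower with shRNA 691, TMEM88 included, and 551 with shRNA 94. TMEM88 remained detected on all 4 arrays.

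Along the chromosome the genes follow each other as WRAP53, EFNB3, DNAH2, KDM6B, TMEM88, NAA38, CYB5D1 and CHD3, in the order of the RefSeq annotation of GRCh38.p14, with a pseudogene with a probe between DNAH2 and KDM6B. Distances are not given, since the array files carry no genome build. Of the 7 members, 6 passed the detection filter of 2 arrays, and for all 6 both TMEM88 shRNA arrays lay below both controls. Over all tested genes 24.9% showed that arrangement. KDM6B passed the filter through the controls alone. In DNAH2 and CYB5D1 both hairpins were at least 2-fold below the control mean, a pattern held by 2.55% of all tested genes, while 2.58% were at least 2-fold higher with both. Since the members were chosen on these values, the counts are not evidence about the region.

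**Figure D1:**
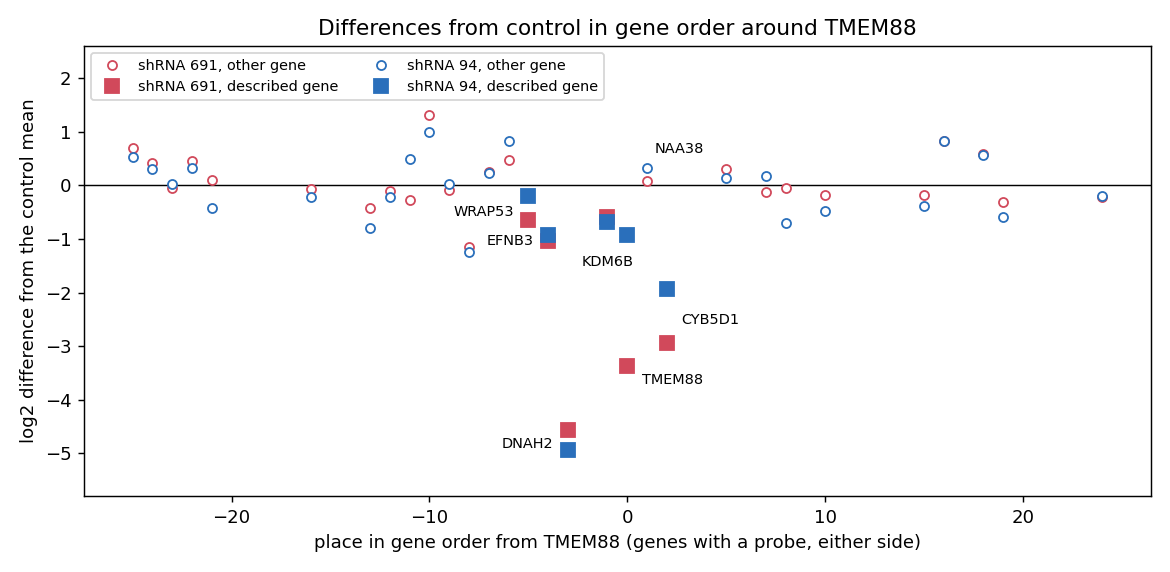
Log2 difference from the control mean (vertical axis) for each hairpin, in gene order from TMEM88 at 0 (horizontal axis, genes with a probe). Squares are the 6 tested members and open circles the 24 other tested genes; DNAH2, TMEM88 and CYB5D1 reach furthest down, and NAA38, between TMEM88 and CYB5D1, lies near 0.

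DNAH2 had the lowest difference of the set. Controls 1 and 2 gave 943.3 and 1368.8 at its probe, shRNA 691 gave 154.6 and shRNA 94 gave 138. The controls were both far above the TMEM88 shRNA arrays, which lay at the limit of detection. With shRNA 691 the probe was only just detected, at a detection p of 0.00779, and with shRNA 94 it was not, at 0.0766. The log2 difference was -4.57 with shRNA 691. With shRNA 94 DNAH2 has only a bound, which after background correction came to at least 24.2-fold lower than the control mean. This bound sets the controls against the higher of the lowest detected signal on the array and the probe's own signal. It holds for that correction only, since the scanner signals themselves lay 8.38-fold apart. Of 10377 tested genes, 3 were as low or lower with shRNA 691, DNAH2 included. The size rests on the background correction: without it the log2 differences were -2.89 and -3.00, and in the authors' deposited log2 matrix -2.92 and -3.04.

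CYB5D1, the next member beyond TMEM88 in gene order, read 1901.6 and 1509.3 on the control arrays, 322.1 for shRNA 691 and 476.8 for shRNA 94. The groups did not overlap, and shRNA 691 was again the lowest array. After normalization it was 7.71-fold lower than the control mean with shRNA 691 and 3.84-fold lower with shRNA 94, log2 differences of -2.95 and -1.94 against a gap of -0.34 between the controls. In all, 32 and 101 tested genes were as low or lower with the respective hairpin. CYB5D1 was detected on all 4 arrays, so these differences have no floor.

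EFNB3 showed a smaller difference. Its probe read 1497.4 and 2313 on the control arrays, 951.8 for shRNA 691 and 949.4 for shRNA 94. The hairpins gave nearly the same level, and both lay below the lower control. The log2 differences were -1.04 and -0.94, but the controls were 0.70 apart, a wider gap than in 81.8% of tested genes. Against control 1 alone the EFNB3 differences were -0.69 and -0.59, and against control 2 alone -1.39 and -1.29.

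WRAP53 and KDM6B differed least among the tested members. WRAP53 read 512.7 and 397.6 on the control arrays, 338.8 for shRNA 691 and 377.8 for shRNA 94. On the log2 scale shRNA 94 lay at 8.20, as did control 2, so the groups barely separated. Its log2 differences were -0.65 and -0.21, with the controls 0.41 apart. Against control 2 alone the difference with shRNA 94 was -0.0017.

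KDM6B was close to the limit of detection throughout. Its probe read 159.7 and 167.8 on the control arrays, where it was detected. It read 150.2 for shRNA 691 and 141.4 for shRNA 94, where it was not. Control over hairpin, the scanner signals gave ratios of 1.09 and 1.16. The log2 differences as measured were -0.58 and -0.69 after background correction and -0.18 and -0.21 without it. After background correction the bound was at least 1.43-fold lower with shRNA 691 and 1.39-fold with shRNA 94. It holds for that correction only, since the scanner signals lay less far apart. The size of the difference is therefore not settled.

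CHD3 did not pass the filter. Its first probe read 134.6 and 139.3 on the control arrays, 159.3 for shRNA 691 and 133.6 for shRNA 94. Its second probe read 144.9, 149.8, 158.2 and 138 in the same order. Both probes were detected on the shRNA 691 array alone, each at a detection p of 0.00519. No fold change or direction is given, because CHD3 was below detection in both controls.

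**Figure D2:**
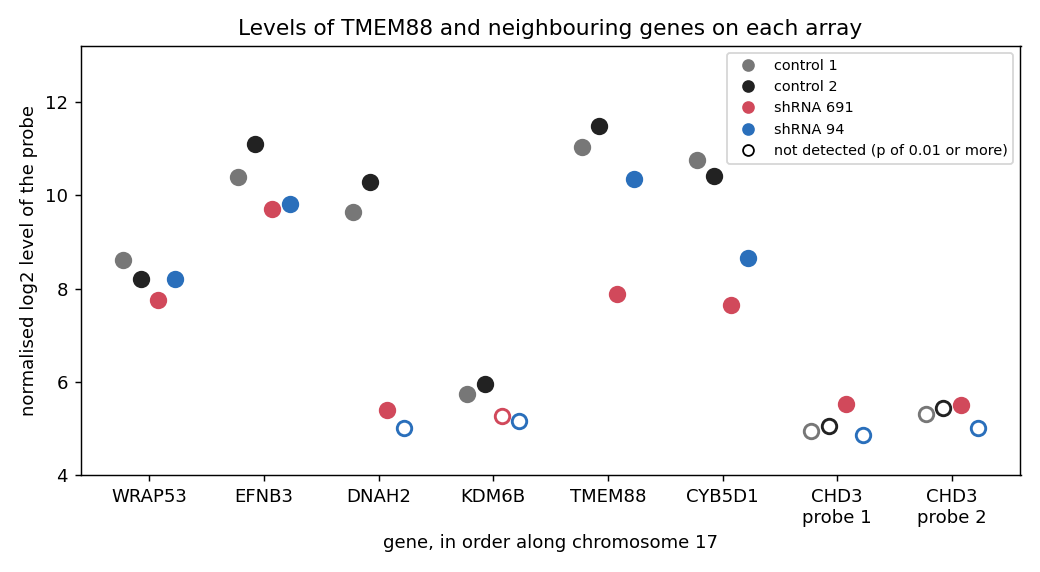
Normalised log2 level (vertical axis) of the 8 probes of the 7 genes (horizontal axis, in gene order) on each of the 4 arrays, 1 point per array, open where the probe was not detected. DNAH2 lies at 9.64 and 10.29 in the controls and at 5.40 and 5.02 with the hairpins, TMEM88 separates the hairpins most, and KDM6B and CHD3 lie near the detection limit.

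The members differed in how far the hairpins parted. The log2 level with shRNA 691 minus that with shRNA 94 was -2.46 for TMEM88 and -1.005 for CYB5D1. It was -0.45 for WRAP53 and -0.10 for EFNB3. The array with the lower TMEM88 level thus also had the lower CYB5D1. DNAH2 and KDM6B were not detected with shRNA 94, so their order between the hairpins cannot be read. With 1 array per hairpin these differences have no replicate. In limma's fit with 3 groups, 0 of 10377 tested genes (0%) differed between the hairpins at an adjusted p of 0.05, and 98 had an unadjusted p under 0.05. That fit took its 1 residual degree of freedom from the controls, so it could not show that the hairpins agreed. Over tested genes the median log2 gap was 0.34 between the controls and 0.21 between the hairpins. Each hairpin was set against the same 2 controls, so both sets of differences share that source of error.

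Averaged over both hairpins, the log2 difference from the controls was -2.44 ± 0.36 for CYB5D1 (SE, n = 2 per group) and -2.15 ± 0.71 for TMEM88. The standard error of TMEM88 includes the difference between hairpins. All standard errors here and below are limma's moderated ones, drawn toward a variance shared by all tested genes. They do not show the spread of these arrays alone. The averages were -0.99 ± 0.29 for EFNB3 and -0.43 ± 0.28 for WRAP53. No average is given for DNAH2 and KDM6B, which were not detected on every TMEM88 shRNA array.

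The genes around the members give the local background. NAA38, an auxiliary subunit gene of an N-terminal acetyltransferase, lies between TMEM88 and CYB5D1 in gene order. Its probe read 534 and 541.7 on the control arrays, 580.3 for shRNA 691 and 601.1 for shRNA 94. NAA38 was thus not lower on either TMEM88 shRNA array, at 0.21 ± 0.23 on the log2 scale (SE, n = 2 per group, limma adjusted p = 0.687). After it in order, RNF227 stood at 0.22 ± 0.31 and TRAPPC1, a subunit gene of a vesicle tethering complex, at 0.03 ± 0.24. On the other side, beyond WRAP53, the sodium pump subunit gene ATP1B2 stood at 0.64 ± 0.42 and the acetyltransferase gene SAT2 at 0.24 ± 0.22.

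SHBG, which encodes the sex hormone-binding globulin and lies beyond SAT2, was the neighbour with the lowest difference. Its probe read 209.2 and 240.9 on the control arrays, 166.7 for shRNA 691 and 154.5 for shRNA 94. Both TMEM88 shRNA arrays were below both controls, and both log2 differences exceeded 2-fold, at -1.15 and -1.24. The average of -1.20 ± 0.25 did not pass the threshold of 0.05 (limma adjusted p = 0.0735). Without control 1 the SHBG difference was -1.42, with 1 control array left to compare with.

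Among the 25 genes with a probe on each side of TMEM88, 44 were not members, and 24 of these passed the detection filter. None of the 24 passed at an adjusted p of 0.05 in limma, against 1.98% of all tested genes (1.02% lower and 0.954% higher). An unadjusted p under 0.05 was found for 4 of them, and for 18.3% of all tested genes. In the single-hairpin fits none passed with shRNA 691 (0.867% of all tested genes) or with shRNA 94 (0.482%), with 1 gene each at an unadjusted p under 0.05. With 24 genes tested, a count of 0 cannot be told apart from these shares. Of all 10377 tested genes, 929 had an unadjusted p under 0.05 with shRNA 691 and 893 with shRNA 94 in these limma fits. The 18.3% belongs to the comparison of both hairpins and is no reference for the single-hairpin counts. Both TMEM88 shRNA arrays lay below both controls for 6 of the 24 and above both for 8, where 24.9% and 25.2% of all tested genes did so. The median difference of the 24 was 0.01, against 0.00 over all tested genes. Leaving out control 1 gave -1.42 for SHBG and 1.25 for TMEM107, against -1.20 and 0.83 with both controls. Leaving out control 2 gave 1.28 for ATP1B2 and 1.88 for SOX15, against 0.64 and 1.15. These genes were picked for passing with 1 control left out, where more of all tested genes passed too. Their passing is therefore no sign of a local change. Over the rest of chromosome 17, neighbours included, 11 of 624 tested genes passed (1.76%), 4 lower and 7 higher.

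Promoter windows show what sequence lies at the starts of these genes. RefSeq windows on GRCh38.p14, from 250 bases before to 50 after a transcript start, matched 4 of the 7 members, with 1 window for DNAH2, 2 for KDM6B, 3 for WRAP53 and 1 for CHD3. The ones shown are those of DNAH2, the member with the lowest difference, of KDM6B, its neighbour, and of NAA38, which was not lower. Capitals mark a match to the X-box, the site of the RFX factors that govern many cilia genes, searched as the half-site GTNNCC, a pair of free bases and the reverse complement GGNNAC, which reads the same on both strands. The motif was chosen after the sequences were seen, and the windows shown are the only 3 of 8 with a match. The other KDM6B window, the 3 of WRAP53 and that of CHD3 have none. The windows are chr17:7717494-7717793 on the plus strand for DNAH2, chr17:7839667-7839966 on the plus strand for KDM6B and chr17:7857510-7857809 on the minus strand for NAA38.
DNAH2: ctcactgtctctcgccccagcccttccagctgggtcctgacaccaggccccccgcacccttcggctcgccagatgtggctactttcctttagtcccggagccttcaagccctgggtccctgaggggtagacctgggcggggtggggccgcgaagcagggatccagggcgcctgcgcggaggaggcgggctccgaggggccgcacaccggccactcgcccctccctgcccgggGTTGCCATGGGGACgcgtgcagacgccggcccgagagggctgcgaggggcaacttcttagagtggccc
KDM6B: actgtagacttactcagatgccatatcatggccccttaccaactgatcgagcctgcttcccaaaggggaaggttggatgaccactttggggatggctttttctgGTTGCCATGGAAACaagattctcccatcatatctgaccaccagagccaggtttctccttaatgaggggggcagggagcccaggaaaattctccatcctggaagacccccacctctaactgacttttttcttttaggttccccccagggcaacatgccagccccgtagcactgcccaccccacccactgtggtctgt
NAA38: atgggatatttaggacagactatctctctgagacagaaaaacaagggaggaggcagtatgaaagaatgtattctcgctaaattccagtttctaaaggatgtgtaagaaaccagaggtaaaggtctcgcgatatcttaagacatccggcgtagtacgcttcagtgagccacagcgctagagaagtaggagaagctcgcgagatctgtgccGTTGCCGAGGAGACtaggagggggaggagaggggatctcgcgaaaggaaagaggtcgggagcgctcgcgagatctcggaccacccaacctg
An X-box match stood in 2 of the 7 member windows and in that of NAA38, against 2.08% of all 35116 windows. The matched letters were GTTGCCATGGGGAC in DNAH2, GTTGCCATGGAAAC in KDM6B and GTTGCCGAGGAGAC in NAA38. The GATA motifs AGATAA and TGATAA, on either strand, matched 1 of the 7 member windows, that of CHD3, and 16.3% of all windows. The TCF/LEF motifs CTTTGA and CTTTGT matched 2, in CHD3 and WRAP53, and 26.2% of all windows. The E-box CANNTG matched 6 of the 7 and 68.7% of all windows. These are letter matches in a short window, and their part in the differences between the arrays was not tested.

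With LOC and open reading frame names left out of the ranking, the 5 genes most like TMEM88 across the arrays lay on other chromosomes. By the root mean square difference of log2 levels, centred on each gene's mean over the 4 arrays, the 5 nearest were CCDC3 (0.41), RFTN1 (0.45), AKR1C4 (0.47), LIX1 (0.58) and PTN (0.58). CCDC3, a secreted protein gene, read 816.8 and 1131.5 on the control arrays, 254.9 for shRNA 691 and 421.9 for shRNA 94. RFTN1, a lipid raft protein gene, read 1376.3, 1194.3, 222.6 and 397 in the same order. In both, shRNA 691 was the lowest array and shRNA 94 the next, as for TMEM88. CYB5D1 ranked 7 in nearness to TMEM88, at 0.61. LIX1 read 1119.1, 1092.5, 282.5 and 381.1, and PTN, the gene of the growth factor pleiotrophin, 311.2, 457.8, 157.1 and 181.9. AKR1C4, an aldo-keto reductase gene, was detected on 3 arrays. None of the 5 is on chromosome 17.

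With the same names left out, the nearest to DNAH2 were SMYD1 (0.30), TXNIP (0.40), HAPLN1 (0.48), ACKR3 (0.48) and HOXB2 (0.52). SMYD1, which encodes a muscle histone methyltransferase, read 652.2 and 614.6 on the control arrays, 120.3 for shRNA 691 and 118.5 for shRNA 94. The chemokine receptor gene ACKR3 read 519, 776.3, 150.4 and 140.9 in the same order. Both were detected on the 2 control arrays alone. Their nearness thus rests in part on values below detection, and DNAH2 itself was not detected with shRNA 94. TXNIP, an inhibitor of thioredoxin, read 2236.7 and 4876.1 in the controls against 312.8 and 267.4, so its controls were far apart. HAPLN1, a hyaluronan link protein gene, read 3627.5 and 5099.9 against 361.9 and 386.7. HOXB2, a homeobox gene that is on chromosome 17 too, read 1011.2 and 1689.5 against 171.8 and 189.8. These genes were picked for likeness, so their patterns are no further evidence.

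**Figure D3:**
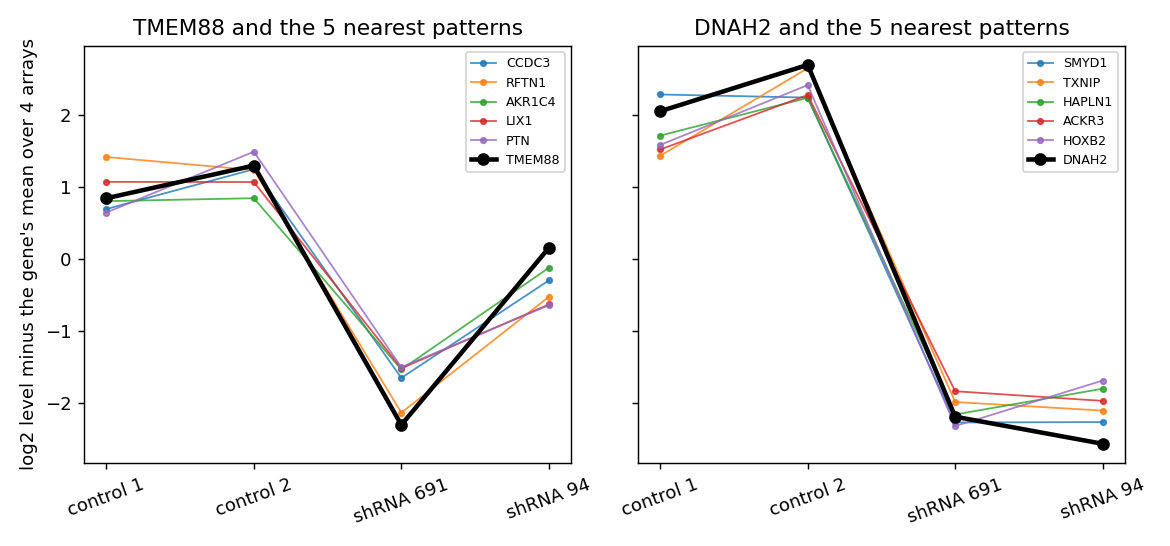
Log2 level minus the gene's mean over the 4 arrays (vertical axis) on each array (horizontal axis) for TMEM88 and DNAH2 (black) with the 5 genes nearest to each (thin lines). Genes near TMEM88 have shRNA 691 below shRNA 94, and those near DNAH2 have both hairpins low. LOC and open reading frame names are left out.

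Lists of genes tied to each member's role describe the rest of its pathway. For TMEM88, 2 of 3 Dishevelled genes were tested and neither passed, with DVL2 at 0.29 ± 0.23 and DVL3 at -0.20 ± 0.24 (SE, n = 2 per group). DVL1 was not detected on any array. Of 11 tested feedback targets of Wnt signalling, SP5 alone rose (3.29 ± 0.32 on the log2 scale, limma adjusted p = 0.0068), and none fell. SP5 read 216.4 and 165.2 in the controls against 930.7 and 805.7 with the hairpins. SP5 also passed without any 1 array, but not with the detection filter removed (limma adjusted p = 0.0656). At an unadjusted p under 0.05 there were 5, a rule that 18.3% of all tested genes met. The list went both ways, with CCND1 at 1.26 ± 0.25 but LEF1 at -2.002 ± 0.46, DKK1 at -1.78 ± 0.72 and TNFRSF19 at -1.25 ± 0.55, none past the adjusted threshold. The list median was 0.33, against 0.00 over all tested genes. Within that list NOTUM was detected on neither control and passed the filter only through the TMEM88 shRNA arrays.

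For DNAH2 the related genes were mostly below detection. Of 13 other dynein heavy chain genes with a probe, 9 were detected on no array, and only DNAH1 and the cytoplasmic chains DYNC1H1 and DYNC2H1 passed the filter. None of the 3 passed the test, with DYNC1H1 at -0.14 ± 0.28 and DYNC2H1 at -0.67 ± 0.31 and a list median of -0.67. DNAH1, an axonemal chain like DNAH2, read 167.5 and 161 in the controls, where it was detected, and 151.4 and 128.8 with the hairpins, where it was not. Of 15 genes of motile cilia with a probe, 9 were detected on no array. FOXJ1, the main regulator of motile cilia, was detected on 1 array. None of the 4 tested cilia genes passed, with DNALI1 at 0.17 ± 0.23 and TEKT2 at 0.30 ± 0.27 and a list median of 0.23. The summed signal of these 4 was 806.4 and 734.5 in the controls and 806.8 and 805.2 with the hairpins. DNALI1 made up the largest share of that sum on every array. RSPH4A, a radial spoke gene, was detected in the controls alone, at 168.1 and 158.7 against 145.2 and 141.8.

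For the chromatin genes, none of 9 tested genes around the Polycomb mark passed (KDM6A, the closest relative of KDM6B, -0.89 ± 0.23, SUZ12 -0.21 ± 0.25, JARID2 -0.06 ± 0.23, list median -0.30). None of 11 tested NuRD genes passed either (HDAC1 0.24 ± 0.22, HDAC2 -0.12 ± 0.23, list median 0.17). For CYB5D1, none of 10 genes with a cytochrome b5 domain or its reductases passed (CYB5R3 -0.17 ± 0.26, CYB5B -0.38 ± 0.23, list median -0.16). For WRAP53, none of 8 telomerase and Cajal body genes passed (NOP10 -0.27 ± 0.23, NHP2 0.16 ± 0.27, list median -0.15). For EFNB3, EPHA4, an ephrin receptor that also binds ephrin-B ligands, fell, with a log2 difference of -1.86 ± 0.23 (limma adjusted p = 0.0155). Its probe read 860.7 and 772.2 on the control arrays, 304.2 for shRNA 691 and 293 for shRNA 94. EPHA4 did not pass without shRNA 691 (limma adjusted p = 0.125), without shRNA 94 (0.0833) or with the detection filter removed (0.0546). It was the 1 call among 6 tested ephrin-B genes, whose median was -0.60, and 4 had an unadjusted p under 0.05, against 1.98% and 18.3% of all tested genes. Here too the list went both ways, with EFNB1 at 2.04 ± 0.47, which did not pass. Counts at an unadjusted p under 0.05 were 2 for the Polycomb list, 2 for NuRD, 1 each for dynein and cilia genes and 0 for the Dishevelled, cytochrome b5 and telomerase lists.

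Markers of other cell types moved between the groups as well. In these bulk samples fewer cells of a type and less RNA per cell cannot be told apart. Of 3 tested neural genes, OTX2 and ZIC2 rose, and the summed signal of the list was 1458.6 and 1210.2 in the controls and 3849.1 and 3400.9 with the hairpins. NES made up the largest share of that sum in the controls and ZIC2 with the hairpins. Of 8 tested endoderm genes none passed, while the sum went from 2533.4 and 1835.9 to 4318.1 and 3408.9. FOXA2 made up the largest share of that sum on every array. CER1 and TTR were detected on neither control and passed the filter only through the TMEM88 shRNA arrays. Of 3 tested endothelial genes none passed, the sum went from 1404 and 980.1 to 3455.9 and 2330, and PECAM1, CDH5, TIE1, ERG and ESAM were detected on no array. VWF made up the largest share of that sum on every array. It stood at 1.88 ± 0.34, SOX18 at 1.32 ± 0.28 and TEK at -0.14 ± 0.28. Of 3 tested blood genes HBE1 fell, with sums of 1537.5 and 1346.7 against 382.2 and 422.8. In the controls HBE1 made up the largest share of that sum. Of 6 tested pluripotency genes none passed, with sums of 11006.5 and 12082.1 against 17479.2 and 12450.8, of which LIN28A was the largest share on every array. Of 10 tested cardiac progenitor genes HAND2, MEF2C and PDGFRA fell and none rose, with sums of 9461.5 and 13471.7 against 10420.5 and 11062.3. Over all tested genes 0.954% rose and 1.02% fell. At an unadjusted p under 0.05 in limma there were 6 endoderm and 5 cardiac progenitor genes. The neural, endothelial and pluripotency lists had 2 each and the blood list 1, and 18.3% of all tested genes met that rule. Without shRNA 691 the limma adjusted p was 0.0934 for OTX2, 0.0647 for ZIC2 and 0.305 for PDGFRA, and without shRNA 94 it was 0.159 for OTX2 and 0.214 for PDGFRA. HAND2, MEF2C and HBE1 passed without either. MEF2C and HBE1 were detected in the controls alone and so passed the detection filter by their control levels alone. With the detection filter removed the limma adjusted p was 0.18 for OTX2, 0.14 for ZIC2 and 0.0824 for PDGFRA, and with detection on all 4 arrays required HAND2, MEF2C, HBE1 and OTX2 were not tested. The part of these cell types in the levels of DNAH2, CYB5D1 and the other members was not tested.

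**Figure D4:**
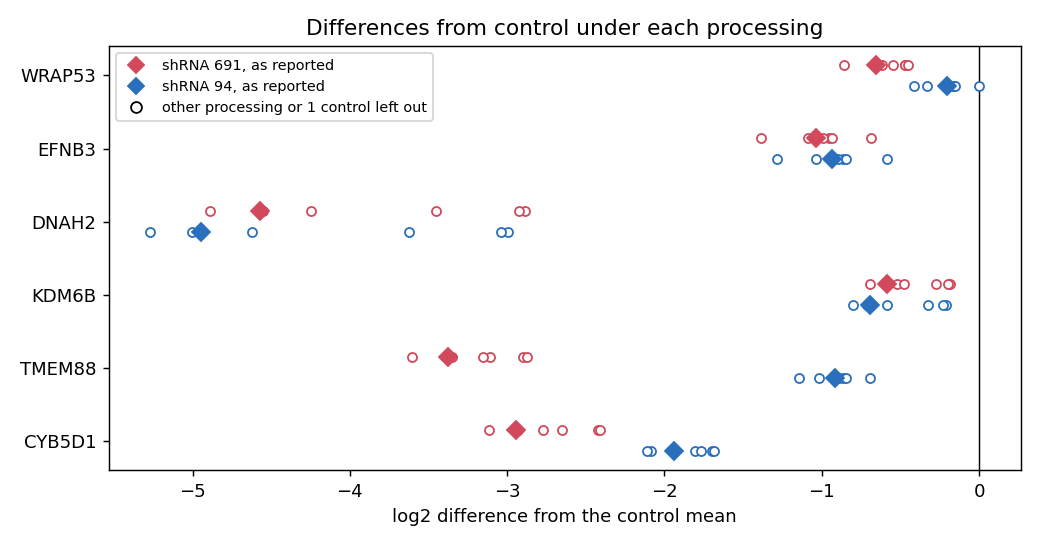
Log2 difference from the control mean (horizontal axis) of each member (vertical axis, in gene order) for both hairpins, as reported (diamonds) and under other processing or with 1 control left out (open circles). None of the 6 members shown changes sign with either hairpin, DNAH2 spreads the most, and WRAP53 with shRNA 94 comes closest to 0. CHD3, not detected in the controls, is left out.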

How the data were processed

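Total RNA of 4 RUES2 samples was copied into biotinylated cRNA and hybridised to Illumina arrays of 1 colour, per the labels' protocols. The deposited scanner table holds, per the file headers, a linear signal intensity for each probe and array that was not normalized, with a detection p-value beside it. The authors' deposited series matrix holds log2 values that lay within 0.158 of quantile-normalized log2 signals, with column medians of 7.02. How it was normalized is not stated in what was used here. Per the submitters' processing notes, lumi and limma 3.12.3 were involved, in roles that are not stated.

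Intensities were processed with neqc of limma 3.58.1 (R 4.3.3, offset 16), with negative controls inferred from the detection p-values. Platform annotation gave 1 symbol to 30113 probes, several to 8 and none to 17201. Each gene was represented by its brightest probe detected on at least 2 of 4 arrays, which left 10377 genes. Groups were taken from the labels and compared by 2-sided moderated tests (lmFit, then eBayes), adjusted over all tested genes by Benjamini and Hochberg's method. For single hairpins the model had 3 groups, leaving 1 residual degree of freedom, and assumed that a lone array varies like the controls. Simulated data with 200 changed genes were used to check these steps. The 2-group comparison recovered 0.597% of genes changed by a log2 of 1, 39.4% at 2 and 70% at 3. Lists and neighbours in which no gene passed may therefore still hold 2-fold differences. The number of arrays limits the precision.

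Members and gene lists were chosen with earlier results of these data known. Besides the members, the text names the 3 tested neighbours next to TMEM88 on each side, neighbours called or 2-fold off with both hairpins, the 5 nearest patterns to TMEM88 and to DNAH2, and of each list up to 3 called genes or else the 2 brightest. Markers and genes named for not being detected, CYB5D1 in the ranking, TMEM107, SOX15, DNAH1, KDM6A, NOTUM, CCND1, LEF1, DKK1, TNFRSF19, RSPH4A and EFNB1 were named after their values were seen. Alternatives covered background correction, normalization, the deposited matrix, filters, probes, the variance model, the window and the omission of single arrays. Plots used matplotlib 3.10.9.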

Additional observations from a re-analysis of the deposited data

Results flagged for a closer look

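Both probes of CHD3 lay on opposite sides of the controls with the 2 hairpins, which singled the gene out. The log2 differences from the control mean were 0.52 with shRNA 691 and -0.15 with shRNA 94 for the first probe, and 0.12 and -0.35 for the second. These are differences between values at or near background, with both controls below detection, and give no fold or direction. Each hairpin is 1 array, both probes were detected on the shRNA 691 array alone, and the difference between the hairpins was not tested for CHD3, which did not pass the detection filter.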

How the results depend on the processing

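None of the 6 tested members changed the sign of its difference with either hairpin under any alternative run. Where all 4 arrays were kept, both TMEM88 shRNA arrays lay below both controls for each of the 6. With 1 array left out the remaining arrays kept that order, as follows from the full set. The members had been chosen by that direction. The alternatives for members other than TMEM88 and for the role lists were added after seeing the data. TMEM88 with shRNA 691 went from -3.38 to -2.90 without background correction and to -2.87 in the deposited log2 matrix. Without either control in turn it lay between -3.61 and -3.15, and with shRNA 94 between -1.14 and -0.69. Counts of called genes moved far more, and the cause was not tested. The 205 genes of the comparison of both hairpins (106 lower) became 19 with no detection filter, 309 with a trended robust variance, 448 at an adjusted p of 0.1 and between 50 and 1453 without 1 array. Without control 1 there were 1453, without control 2 548, without shRNA 691 50 and without shRNA 94 90. The 90 genes with shRNA 691 (55 lower) became 19 without background correction (15 lower), 46 in the deposited matrix, 0 with no filter, 32 when detected on all 4 arrays and 171 with probes averaged. The 50 genes with shRNA 94 (35 lower) became 5 (5 lower), 26, 0, 3 and 147 in the same order, 79 with median scaling, 103 with a trended robust variance and 69 (40 lower) with normexp. Called neighbours numbered 0 in limma and between 0 and 2 without 1 array, and the 2 called genes of the role lists became 0 with no filter, 4 with a trended robust variance and between 1 and 12 without 1 array. With a control left out the single-hairpin fits have no residual degrees of freedom, so they gave no test. No paired analysis was possible because the titles of the groups share no replicate code. Probes near background, KDM6B and CHD3 above all, limit what can be measured.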
